A study of Mus musculus with 13 samples.

Results

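The BCL2 family holds the proteins that decide whether the outer mitochondrial membrane is opened during apoptosis. The 10 members described here were chosen by name, as the best-known pro- and anti-apoptotic genes of the family: the anti-apoptotic *Bcl2*, *Bcl2l1* and *Mcl1*, the effectors *Bax* and *Bak1*, and the BH3-only genes *Bbc3*, *Pmaip1*, *Bcl2l11*, *Bid* and *Bad*. They are 10 of the 33618 genes counted, and all 10 were among the 16753 left after genes of low count were removed with edgeR. Anti-apoptotic members hold the effectors and the BH3-only proteins in check by binding the BH3 helix. BH3-only proteins are raised or activated by damage, starvation or loss of survival signals, and BAX and BAK then form pores that release cytochrome c, which assembles the apoptosome with APAF1 and starts the caspases. In fat, as elsewhere, much of this control acts on the proteins by phosphorylation, cleavage and turnover, which mRNA levels do not show.

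The RNA came from whole parametrial white adipose tissue (pmWAT) of female mice, 1 library per mouse, 7 labelled *Lmna* fl/fl and 6 labelled *Lmna* iADKO. All 13 mice carried floxed *Lmna* alleles, and all were given tamoxifen at 50 mg/kg on 5 consecutive days at 12 to 14 weeks of age, with tissue collected 2 weeks posttamoxifen. Only the iADKO mice carried Adipoq-CreERT2+/-, a tamoxifen-activated recombinase expressed from the adiponectin promoter and so directed at adipocytes. The controls carried no Cre, so Cre and loss of *Lmna* cannot be told apart. Whole pmWAT also holds immune, vascular and stromal cells in which the driver is not active, and in bulk RNA fewer cells of a type and less RNA per cell cannot be told apart.

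Total counts per mouse were between 19147428 and 19776491 for fl/fl mice and between 18854223 and 19569221 for iADKO mice, and values below (CPM) are counts divided by the TMM-adjusted total of their library and put on one scale. The whole-gene *Lmna* count, in which the floxed exons cannot be counted apart, did not fall with the iADKO label. It averaged 84.7 ± 7.51 CPM (SD, n = 7) under the fl/fl label against 96.7 ± 11.5 CPM (SD, n = 6), so each direction below is only as good as the labels. All 7 adipocyte markers were lower in the libraries labelled iADKO, with a sum of 16171 to 24886 CPM in fl/fl and 10301 to 17770 CPM in iADKO. Of the 9 macrophage markers 5 were higher and 0 lower, with sums of 1967 to 5287 CPM and 3055 to 5284 CPM. Over all genes, 14.1% were higher and 16.3% lower in the test described below. The highest macrophage sum among fl/fl mice was that of replicate 5 and the lowest among iADKO mice that of replicate 6, so these 2 mice each lie toward the other genotype. No marker of either list was at 0 in any library. Library names also carry animal numbers, here put into series by nearness although no label says what the numbers mark, and only 2 series hold both genotypes. These are a series of 3 fl/fl mice and 1 iADKO mouse and a series of 2 and 2, so the genotype and the series are partly confounded.

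The members are recognised by the BH3 core, a short helix with a fixed leucine followed by a small residue and an aspartate, through which BH3-only proteins and effectors bind the groove of the anti-apoptotic proteins. The stretches of 36 bases that code for it are shown because this is the sequence the family shares, read from GRCm39 on each gene's own strand, 5′ to 3′, within a single coding exon. Capitals mark the codon of the leucine and the 2 codons of the small residue and the aspartate.

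*Bcl2*, chr1:106640305-106640340, minus strand: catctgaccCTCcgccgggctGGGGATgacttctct
*Bcl2l1*, chr2:152671617-152671652, minus strand: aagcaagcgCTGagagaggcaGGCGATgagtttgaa
*Mcl1*, chr3:95566738-95566773, plus strand: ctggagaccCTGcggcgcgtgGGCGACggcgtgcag
*Bax*, chr7:45115421-45115456, minus strand: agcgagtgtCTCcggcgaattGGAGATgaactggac
*Bak1*, chr17:27241505-27241540, minus strand: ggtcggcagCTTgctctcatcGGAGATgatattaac
*Bbc3*, chr7:16047689-16047724, plus strand: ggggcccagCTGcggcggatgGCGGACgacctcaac
*Bcl2l11*, chr2:127989061-127989096, plus strand: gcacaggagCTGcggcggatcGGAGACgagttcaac
*Bid*, chr6:120874250-120874285, minus strand: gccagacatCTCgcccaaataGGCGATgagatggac
*Bad*, chr19:6928151-6928186, plus strand: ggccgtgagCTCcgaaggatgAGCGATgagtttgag

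In 7 of these 9 genes the small residue is coded by a glycine codon. The exceptions are both BH3-only genes, *Bbc3* with an alanine codon and *Bad* with a serine codon. No sequence is shown for *Pmaip1*.

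Of the 10 members, 5 rose with the iADKO label and 0 fell, with the threshold at an adjusted p of 0.05 (edgeR's quasi-likelihood test with Benjamini-Hochberg adjustment over all genes tested). Those called were *Mcl1*, *Bcl2l1*, *Bax*, *Bcl2l11* and *Pmaip1*. They belong to all 3 arms of the family: 2 of 3 anti-apoptotic genes, 1 of 2 effectors and 2 of 5 BH3-only genes. For comparison, 30.5% of all genes tested were called in either direction, 14.1% as higher and 16.3% as lower. The median log2 fold change was 0.19 over the 10 members and 0.033 over all genes tested. The fold change was positive in 7 of the 10 and in 9158 of the 16753 genes tested. At an unadjusted p under 0.05, 6 members were higher and 0 lower, and 7145 of the 16753 genes passed in either direction. The Wald test of DESeq2 called the same 5. The share of all genes called was 30.5% with that test, 30.4% with DESeq2's size factors or without mitochondrially encoded genes, 33.9% with at least 10 counts in every library, 11.9% with no filter, 29.0% with the replicate block and 30.8% without robust estimation. With no filter 3 members passed. With a macrophage score, an adipocyte score or the series of animal numbers in the fit 0 members passed, as set out further on. Without fl/fl replicate 5 and iADKO replicate 6 together 4 members passed, *Bcl2l1* not among them (adjusted p = 0.0519), and 42.9% of all genes did. *Bax* and *Bcl2l1* are among the cell death genes that the study selected from these libraries for display, so their directions are not independent evidence.

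**Figure D1:**
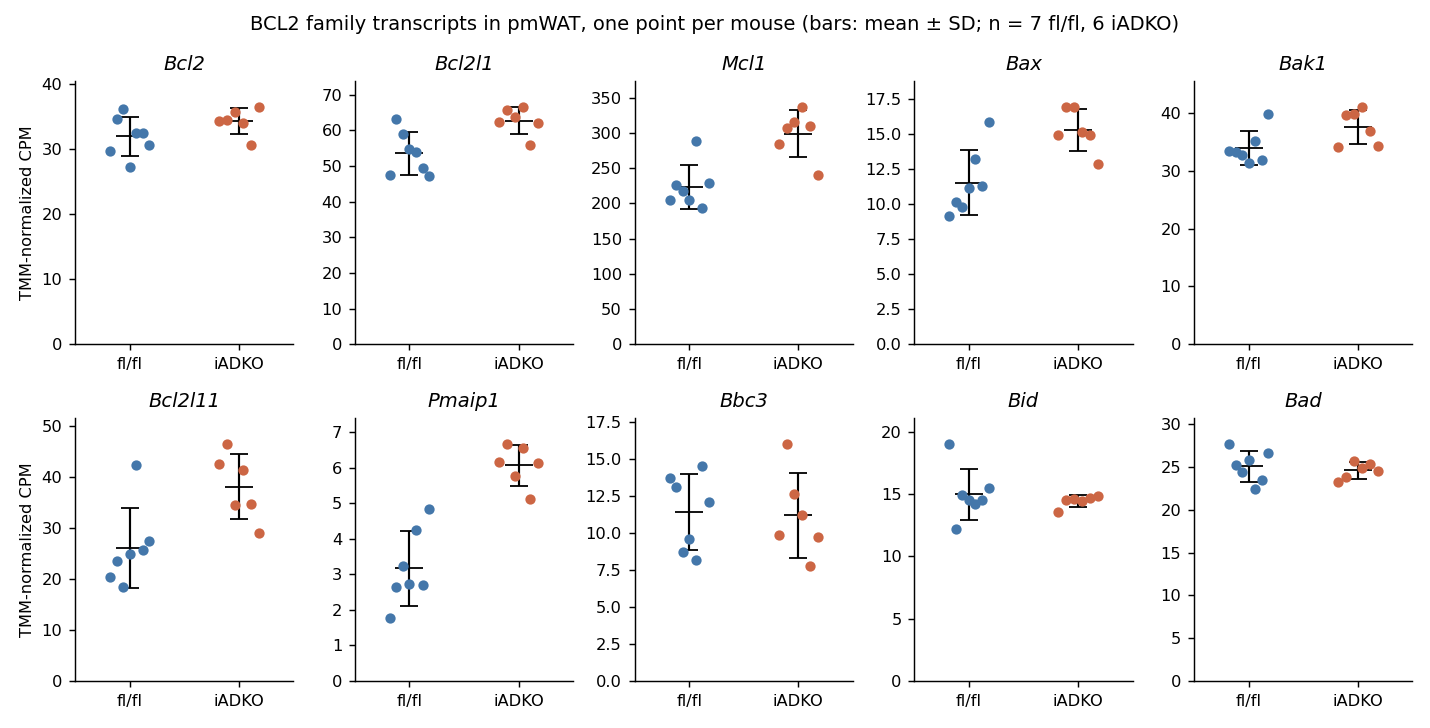
TMM-normalized CPM of each of the 10 members (y axes from 0, a separate scale per gene) in the 7 fl/fl and 6 iADKO mice, with points for mice and bars for the mean ± SD. *Pmaip1* is the member whose 6 iADKO values all lie above the 7 fl/fl values, and *Bid* and *Bad* overlap throughout.

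Per kilobase of canonical transcript, the levels of the members spanned a wide range. *Mcl1* was highest in fl/fl, at 64.0 ± 9.06 CPM per kb (SD, n = 7), followed by *Bad* at 21.1 ± 1.53 and *Bcl2l1* at 16.4 ± 1.86. *Bak1* (14.2 ± 1.22) and *Bax* (11.8 ± 2.38) came next, and the SD ranges of *Bcl2l1*, *Bak1* and *Bax* overlapped each with its neighbour. *Bid*, *Bcl2l11*, *Bcl2* and *Bbc3* lay between 6.80 and 4.25 CPM per kb, and each overlapped its neighbour within 1 SD. *Pmaip1* was lowest, at 1.16 ± 0.38 CPM per kb. In iADKO the mean of *Mcl1* was 85.7 CPM per kb and that of *Pmaip1* 2.22. *Mcl1* in fl/fl was therefore at a level above those of *Bcl2l1* and *Bcl2* (4.41 ± 0.41), the other anti-apoptotic members. Divided instead by the length of all annotated exons, *Mcl1* remained highest in both genotypes and *Pmaip1* lowest in fl/fl, but *Bad* fell from the second place to the fifth, so the order between them depends on which length is used.

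**Figure D2:**
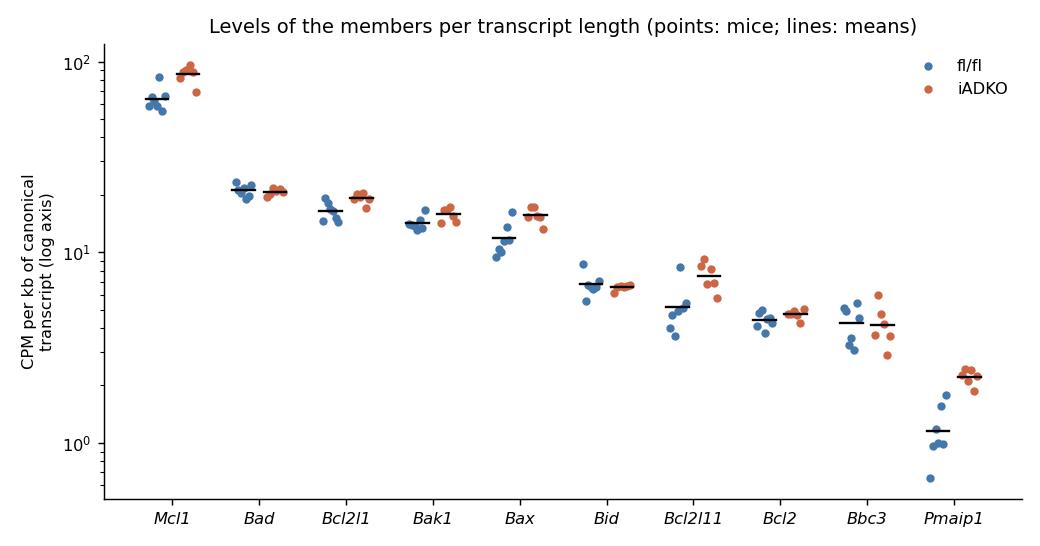
Level of each member in CPM per kilobase of canonical transcript (log axis), in fl/fl and iADKO mice, with points for mice and lines for the means. *Mcl1* (64.0 in fl/fl) stands above the other members and *Pmaip1* (1.16 in fl/fl) below them.

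The anti-apoptotic members are taken first. *Mcl1* (ENSMUSG00000038612, chr3:95566026-95570487) encodes a short-lived guardian that binds BAK, BIM and NOXA. Its lowest, median and highest values were 193, 217 and 289 CPM in fl/fl and 241, 309 and 336 CPM in iADKO. In 4 of 6 iADKO mice it was above every fl/fl mouse. The groups overlapped through fl/fl replicate 5, at 289 CPM, and through iADKO replicates 1 and 6, at 285 and 241 CPM. This gave a log2 fold change of 0.42 (adjusted p = 0.00529, standard error 0.096). These 2 extremes, fl/fl replicate 5 and iADKO replicate 6, are the mice named above for their macrophage markers, so leaving both out could only widen the difference (0.53).

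*Bcl2l1* (ENSMUSG00000007659, chr2:152622582-152673655) encodes BCL-XL together with a shorter pro-apoptotic splice form, which counts per gene cannot separate. It ranged from 47.1 over a median of 53.8 to 63.2 CPM in fl/fl and from 55.9 over 63.0 to 66.5 CPM in iADKO. All 6 iADKO mice lay above the fl/fl median and 3 above the highest fl/fl mouse, replicate 2. On the log2 scale *Bcl2l1* rose by 0.23 (standard error 0.072, adjusted p = 0.0276). This call was lost without any one of fl/fl replicates 1 and 6 and iADKO replicates 2, 3 and 4, with an adjusted p of up to 0.0632, and when genes of low count were kept (adjusted p = 0.0544).

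*Bcl2* (ENSMUSG00000057329, chr1:106465908-106642060), the founding anti-apoptotic gene, was at 27.3, 32.5 and 36.2 CPM (lowest, median, highest) in fl/fl and at 30.7, 34.4 and 36.4 CPM in iADKO. The groups overlapped over most of their range. Its log2 fold change was 0.10, with an interval of 2 standard errors from -0.029 to 0.23 (adjusted p = 0.251). *Bcl2* thus did not pass the test, and the interval leaves room for a rise about as large as that of *Bcl2l1*.

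Of the effectors, *Bax* (ENSMUSG00000003873, chr7:45111015-45116325), whose product moves from the cytosol to mitochondria on activation, was higher. Its lowest, median and highest values were 9.20, 11.2 and 15.9 CPM in fl/fl and 12.9, 15.1 and 16.9 CPM in iADKO. Only iADKO replicates 2 and 3 lay above the highest fl/fl mouse, replicate 7, and all 6 lay above the fl/fl median. *Bax* thus rose on the log2 scale by 0.41 (adjusted p = 0.0193, standard error 0.12), and it passed with each mouse left out in turn, with an adjusted p of at most 0.046.

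*Bak1* (ENSMUSG00000057789, chr17:27238784-27247983), the effector that resides at mitochondria, was at 31.3, 33.2 and 39.9 CPM in fl/fl and at 34.2, 38.3 and 41.0 CPM in iADKO. All 6 iADKO mice lay above the fl/fl median, and 1 lay above the highest fl/fl mouse, replicate 7. Its log2 fold change of 0.15 (standard error 0.066) had an adjusted p of 0.0979. Without fl/fl replicate 7 it passed, with a log2 fold change of 0.19 and an adjusted p of 0.0234.

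Among the BH3-only genes, *Pmaip1* (ENSMUSG00000024521, chromosome 18), which encodes the MCL1-binding protein NOXA and is a known p53 target, had the highest fold change of the 10. It was at 1.78, 2.74 and 4.85 CPM in fl/fl and at 5.11, 6.16 and 6.67 CPM in iADKO. All 6 iADKO mice lay above all 7 fl/fl mice, which held for 2.71% of genes tested in this direction and for 6.64% in either. The log2 fold change was 0.93 (standard error 0.19, adjusted p = 0.00256), a mean of 3.17 ± 1.05 CPM (SD, n = 7) against 6.07 ± 0.572 CPM (SD, n = 6). Its counts were low, 31 to 143 per library. The highest fl/fl values were those of replicates 7 and 5, at 4.85 and 4.25 CPM, and these mice also had the highest macrophage marker sums of their group, 3491 and 5287 CPM. The value of iADKO replicate 6 was 6.14 CPM.

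*Bcl2l11* (ENSMUSG00000027381, chr2:127967958-128004476) encodes BIM, which binds all anti-apoptotic members and can activate the effectors directly. It was at 18.4, 24.8 and 42.2 CPM in fl/fl and at 29.0, 38.0 and 46.4 CPM in iADKO. In fl/fl the highest value, again that of replicate 5, stood apart from the next at 27.5 CPM, and in iADKO the lowest was that of replicate 6. The log2 fold change was 0.55 (standard error 0.17, adjusted p = 0.0276). As these are the extremes that lie nearest the other group, leaving both out could only widen the difference (0.75). The call was lost without any one of fl/fl replicates 1, 2 and 3 and iADKO replicates 1, 2 and 4, with an adjusted p of up to 0.0667, and when genes of low count were kept (adjusted p = 0.0771).

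The remaining BH3-only genes did not pass the test. *Bbc3* (ENSMUSG00000002083, chr7:16042318-16052130), which encodes PUMA, another p53 target, was at 8.20, 12.1 and 14.5 CPM in fl/fl and at 7.74, 10.5 and 16.0 CPM in iADKO, so the iADKO values enclosed those of fl/fl. Its log2 fold change was -0.028 with an interval from -0.38 to 0.32 (adjusted p = 0.918). *Pmaip1* and *Bbc3*, although both are p53 targets, therefore had different outcomes in the test, and whether their fold changes differ was not tested.

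*Bid* (ENSMUSG00000004446, chr6:120862525-120894171), which is cleaved by caspase-8 and links the death receptors to mitochondria, was at 12.2, 14.5 and 19.02 CPM in fl/fl and at 13.5, 14.6 and 14.8 CPM in iADKO. Its log2 fold change was -0.053 with an interval from -0.22 to 0.11 (adjusted p = 0.648). *Bad* (ENSMUSG00000024959, chr19:6918902-6929280), which AKT phosphorylates and so inactivates, was at 22.5, 25.2 and 27.7 CPM in fl/fl and at 23.2, 24.7 and 25.7 CPM in iADKO. The log2 fold change of *Bad* was -0.029, and its interval of -0.14 to 0.081 was the narrowest of the 10. For *Bid* and *Bad* all 6 iADKO values lay within the range of the fl/fl values. Of the exon bases of *Bid*, 3059 of 9796 are shared with *Bcl2l13* on the opposite strand. Of those of *Bad*, 914 of 4485 are shared with *Gpr137* and 1130 with *Gm56656*, both on the opposite strand. Other members share exon bases too, such as *Bak1*, with 437 of 2407 in *Ggnbp1* on the opposite strand. The called *Bax* shares 192 of 1856 with *Gm45808* on the same strand, where strand cannot tell reads apart. Because the strand setting of the counting is not given in the sources used here, reads of the pairs on opposite strands may not have been told apart either.

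All 5 calls were lost with either marker score as a covariate and with the series of animal numbers as a block. With the macrophage marker score as a covariate 0 members passed, and 3.18% of all genes did. At an unadjusted p under 0.05, 2 members and 2922 of the 16753 genes passed. The log2 fold change was then 0.23 for *Bcl2l1* and 0.58 for *Pmaip1*, but 0.11 for *Mcl1*, 0.098 for *Bax* and 0.010 for *Bcl2l11*. The value for *Bcl2l1* thus stayed close to that without the covariate, with a larger error (adjusted p = 0.265), while that of *Bcl2l11* moved to near 0. With the adipocyte marker score 0 members passed, and 0.0358% of all genes did. At an unadjusted p under 0.05, 0 members and 2252 of the 16753 genes passed. Then *Mcl1* and *Bcl2l11* changed sign, to -0.061 and -0.37, while *Pmaip1* was at 0.51, *Bcl2l1* at 0.22 and *Bax* at 0.024. Both scores differ between the genotypes themselves, so the genotype and the score cannot be told apart in these 13 libraries.

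With the series of animal numbers as a block, 0 members passed, and 0.322% of all genes did. At an unadjusted p under 0.05, 6 members and 4000 of the 16753 genes passed. The fold changes themselves stayed in the same direction, at 0.23 for *Bcl2l1*, 0.35 for *Mcl1*, 0.47 for *Bax*, 1.09 for *Pmaip1* and 0.56 for *Bcl2l11* on the log2 scale. With iADKO replicate 1 joined to the series with the nearest numbers, *Bax* (adjusted p = 0.0419) and *Pmaip1* (adjusted p = 0.0177) passed, and 11.9% of all genes did. Within the series of 2 fl/fl and 2 iADKO mice, the difference in mean log2 CPM was 0.88 for *Pmaip1*, 0.24 for *Bcl2l1*, 0.22 for *Mcl1*, 0.20 for *Bax* and 0.099 for *Bcl2l11*. In the series of 3 fl/fl mice and 1 iADKO mouse it was 1.39 for *Pmaip1*, 0.23 for *Bcl2l1*, 0.51 for *Mcl1*, 0.80 for *Bax* and 1.16 for *Bcl2l11*. All of these 10 differences were above 0. These mice were also in the fit that called the 5 members, so the signs are not independent evidence. Within the series of 2 and 2 the members not called were above 0 as well, *Bcl2* and *Bbc3* at 0.24 and *Bak1* at 0.18 among them. In the other series *Bid* (-0.061) and *Bad* (-0.11) were below 0. The series of 2 and 2 holds fl/fl replicate 5 and iADKO replicate 6.

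**Figure D3:**
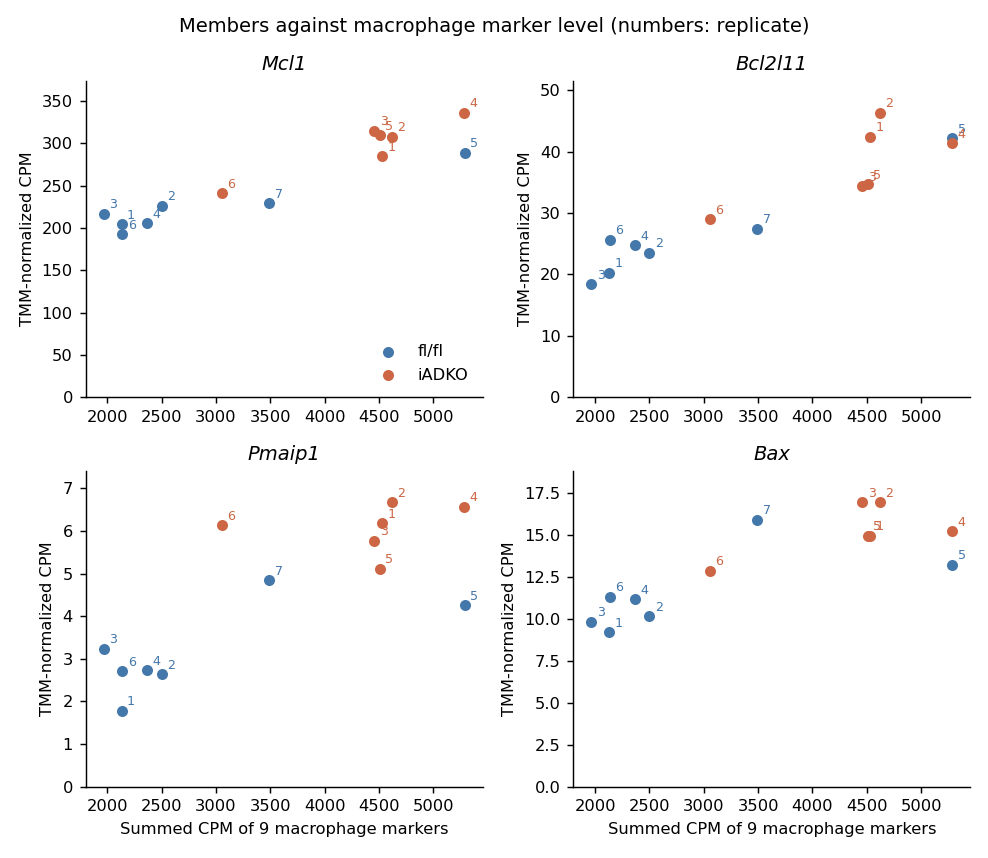
CPM of *Mcl1*, *Bcl2l11*, *Pmaip1* and *Bax* (y axes from 0) against the summed CPM of the 9 macrophage markers (x axes), one numbered point per mouse. Replicate 5 of fl/fl (5287 CPM of markers) lies among the iADKO mice for *Mcl1* and *Bcl2l11*, while for *Pmaip1* it lies below them all.

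Ratios of mRNA levels within a mouse are given as a description. In whole pmWAT they do not show the balance of the proteins in any type of cell. The log2 ratio of *Bax* to *Bcl2* was -1.48 ± 0.33 (SD, n = 7) in fl/fl and -1.16 ± 0.18 (SD, n = 6) in iADKO. The difference of 0.32 was about the size of the spread in fl/fl, and 0 of 6 iADKO mice exceeded the highest fl/fl mouse. The log2 ratio of *Pmaip1* to *Mcl1* was -6.15 ± 0.37 and -5.60 ± 0.22, with 3 of 6 iADKO mice above every fl/fl mouse. The log2 ratio of *Bcl2l11* to *Bcl2* was -0.33 ± 0.42 and 0.13 ± 0.28, with 1 of 6 above. Anti- and pro-apoptotic members thus rose side by side: *Mcl1* and *Pmaip1*, whose products bind each other, were both higher in the libraries labelled iADKO.

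After each genotype's mean was subtracted, some members varied together from mouse to mouse over the 13 libraries, which share a normalization. The highest Pearson r between members was 0.77, for *Bax* and *Pmaip1*, followed by 0.73 for *Bax* and *Bak1* and 0.70 for *Mcl1* and *Bcl2l11*. The lowest was -0.67, for *Bcl2l1* and *Bid*. *Mcl1* and *Bcl2l11* were both highest among fl/fl mice in replicate 5 and lowest among iADKO mice in replicate 6. How far their r rests on these mice was not tested. Among all other named genes, *Mcl1* was most like *Calhm2* (r = 0.97), *Man1c1* (0.96) and *Grn* (0.95), and *Bcl2l11* most like *Pappa* and *Rp2* (each 0.97). *Bax* was most like *Cdk4* (r = 0.94), *Syn1* (0.94) and *Casp1* (0.93). *Pmaip1* was most like *Ppbp* (r = 0.94), *Pvrig* (0.92) and *Osm* (0.91), and *Bcl2l1* most like *Lifr* (0.92), *Trpc1* (0.87) and *Arl4d* (0.86). The highest r was lower for *Bcl2* (0.85, *C1galt1*) and *Bbc3* (0.86, *Sh3tc1*) than for *Bak1* (*Capzb*, 0.92), *Bad* (*Mrfap1*, 0.92) and *Bid* (*Ube2z*, 0.91). Each of these is the highest among all named genes tested, over only 13 libraries. How high such an r would reach by chance was not tested.

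The other genes of the family moved in both directions. Of 15 tested, 4 were higher and 4 lower, with a median log2 fold change of 0.11. Over all genes tested, 14.1% were called higher and 16.3% lower. The 4 that fell have higher counts than most that rose. *Bnip3*, a hypoxia-responsive mitophagy receptor, fell from 350 CPM with a log2 fold change of -0.78 (adjusted p = 4.15e-04, standard error 0.11), and every iADKO mouse lay below every fl/fl mouse. Its relative *Bnip3l* was at -0.22 (adjusted p = 0.0131). *Bcl2l2*, which encodes the anti-apoptotic BCL-W, also separated the groups completely, at 70.0 to 84.3 CPM in fl/fl and 53.2 to 63.7 CPM in iADKO, with a log2 fold change of -0.36 (adjusted p = 0.0011). *Bcl2l2* thus fell while *Bcl2l1* and *Mcl1*, which share its anti-apoptotic role, rose. *Bcl2l13*, a mitochondrial member that shares exon bases with *Bid*, was at -0.35 (adjusted p = 0.00859).

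Those that rose were *Bok*, a further effector-like gene (log2 fold change 0.26, adjusted p = 0.0323), and 3 genes of low count. *Bcl2a1a* (0.94, adjusted p = 0.0322) and *Bcl2a1d* (1.10, adjusted p = 0.0134) encode the anti-apoptotic A1 protein of blood cells. Their near-identical copies, *Bcl2a1b* among them (0.64, adjusted p = 0.176), may not have been counted apart. *Bcl2l14* rose from a mean of 0.442 CPM in fl/fl, with a log2 fold change of 1.76 and an adjusted p of 0.0217. Its iADKO values ran from 0.73 to 4.52 CPM, the highest being that of replicate 6, and the fl/fl values reached 0.773 CPM. Without iADKO replicate 6 its log2 fold change was 1.04 (adjusted p = 0.0381). The call of *Bok* was lost without any one of fl/fl replicates 2, 4 and 6 and iADKO replicates 2, 3, 4 and 6 (adjusted p up to 0.0787), and that of *Bcl2a1a* without any one of fl/fl replicates 1, 2, 3, 4 and 6 and iADKO replicates 1, 2 and 4 (up to 0.0686).

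**Figure D4:**
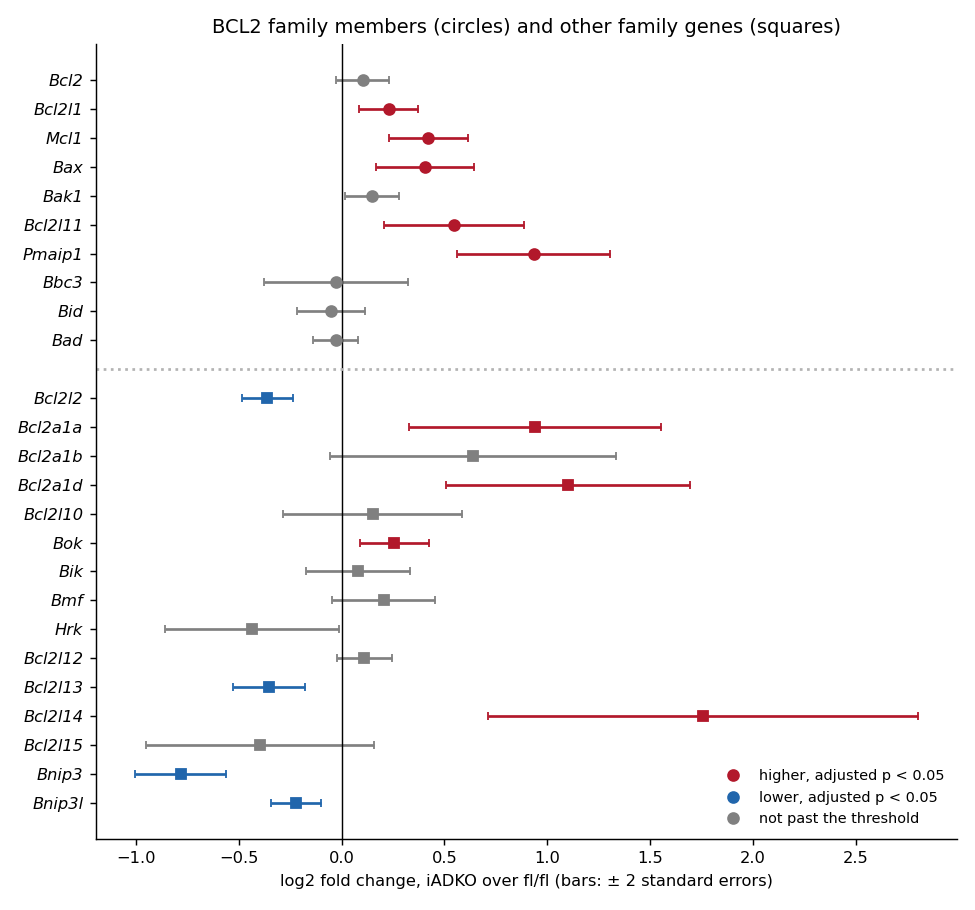
Log2 fold change of iADKO over fl/fl (x axis, bars of 2 standard errors) for the 10 members (circles) and the 15 other genes of the family (squares), red where higher and blue where lower at an adjusted p under 0.05. The 5 members called lie to the right of 0, and the other family genes lie on both sides, from *Bnip3* at -0.78 to *Bcl2l14* at 1.76.

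Downstream of the family, the apoptosome and caspase list had 2 genes higher and 3 lower of 13, with a median of 0.017. The shares over all genes tested were 14.1% higher and 16.3% lower. *Apaf1*, the scaffold of the apoptosome, rose by 0.45 (standard error 0.13, adjusted p = 0.0149) and *Casp2* by 0.28 (adjusted p = 0.0152) on the log2 scale. The genes of the mitochondrial proteins AIF (*Aifm1*) and endonuclease G (*Endog*) fell by 0.62 (adjusted p = 3.21e-04) and 0.48 (adjusted p = 0.00378) on the same scale. *Casp9*, the caspase that the apoptosome activates, was at 0.017 (adjusted p = 0.843), and *Cycs*, which encodes cytochrome c, at -0.39 (adjusted p = 0.0683).

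Of 5 inhibitor of apoptosis genes 2 were higher and 0 lower, with a median of 0.094, where 14.1% of all genes tested were higher. *Birc3*, an NF-kB target, rose by 0.36 (adjusted p = 0.017), and *Birc5*, which encodes survivin and is expressed in dividing cells, rose by 0.65 (adjusted p = 0.024) from 1.68 CPM. The *Birc5* call was lost without any one of fl/fl replicate 1 and iADKO replicates 3 and 5, with an adjusted p of up to 0.063. Of the 5 proliferation genes examined as markers, 3 were also higher and 0 lower, against the same 14.1% of all genes. Their sums were 22.9 to 42.4 CPM in fl/fl and 34.5 to 54.2 CPM in iADKO, and their part in the *Birc5* value was not tested. *Xiap*, the direct inhibitor of caspases, was at -0.091 (adjusted p = 0.186).

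In the death receptor arm 2 of 10 genes were higher and 1 lower, with a median of 0.080. With both directions together, this list was near the 30.5% of all genes tested that were called. The receptors *Fas* (0.28, adjusted p = 0.00889) and *Tnfrsf10b* (0.35, adjusted p = 0.00571), both known p53 targets, rose. The adaptor *Fadd*, which joins such receptors to caspase-8, fell by 0.29 (adjusted p = 0.00874). *Apaf1*, *Casp2*, *Birc5*, *Fas* and *Tnfrsf10b* were also among the genes selected by the study from these libraries, so the directions of these lists are not independent evidence.

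The mitochondrial partners of the BCL2 proteins had 0 genes higher and 6 lower of 11, with a median of -0.22 and no gene above 0. Over all genes tested, 16.3% were called lower. The study reported that mitochondrial genes were repressed in these libraries, so this direction is not particular to the partners. Whether the partners fell more than other mitochondrial genes was not tested. *Mtch2*, the outer membrane receptor for the cleaved form of BID, fell by 0.63 (standard error 0.11, adjusted p = 0.00133), and its relative *Mtch1* by 0.18 (adjusted p = 0.0169). *Opa1*, which keeps cristae closed, fell by 0.36 (adjusted p = 0.00182), the channel gene *Vdac1* by 0.34 (adjusted p = 0.00387), *Ppif*, which encodes cyclophilin D, by 0.23 (adjusted p = 0.0384) and the fission adaptor *Mff* by 0.22 (adjusted p = 0.0137). The *Ppif* call was lost without any one of fl/fl replicates 1, 2, 3, 6 and 7 and iADKO replicates 1, 3, 4 and 5, with an adjusted p of up to 0.0904. *Vdac2*, which holds BAK at mitochondria, was at -0.11 (adjusted p = 0.168). At an adjusted p under 0.05, DESeq2's size factors gave 14 higher and 18 lower over all 69 genes of the 6 lists tested, against 14 and 16 with TMM.

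Of 15 regulators of the family tested, 4 were higher and 2 lower, with a median of 0.18. Among all genes tested 14.1% were higher and 16.3% lower. *Trp53*, which encodes p53, rose by 0.46 (standard error 0.070, adjusted p = 5.93e-04), and *Ddit3*, which encodes CHOP, rose by 0.59 (standard error 0.089, adjusted p = 5.85e-04). Of the 15 regulators tested, 6 separated the genotypes completely, these 2 among them, and they were the same 6 that were called. Over all genes tested, 6.64% separated in either direction and 30.5% were called. *Ywhaz*, a 14-3-3 protein that holds phosphorylated BAD, rose by 0.26 (adjusted p = 0.00325), and *Fbxw7*, a ubiquitin ligase component that targets MCL1, by 0.24 (adjusted p = 0.0179). Another ligase of MCL1, *Huwe1*, fell by 0.27 (adjusted p = 0.00327), and *Akt2*, the AKT isoform of insulin action in fat, fell by 0.64 (adjusted p = 2.75e-04). *Foxo3*, a known activator of *Bcl2l11*, was at 0.22 (adjusted p = 0.125). *Trp73* and *Trim17* were not tested because of low counts.

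**Figure D5:**
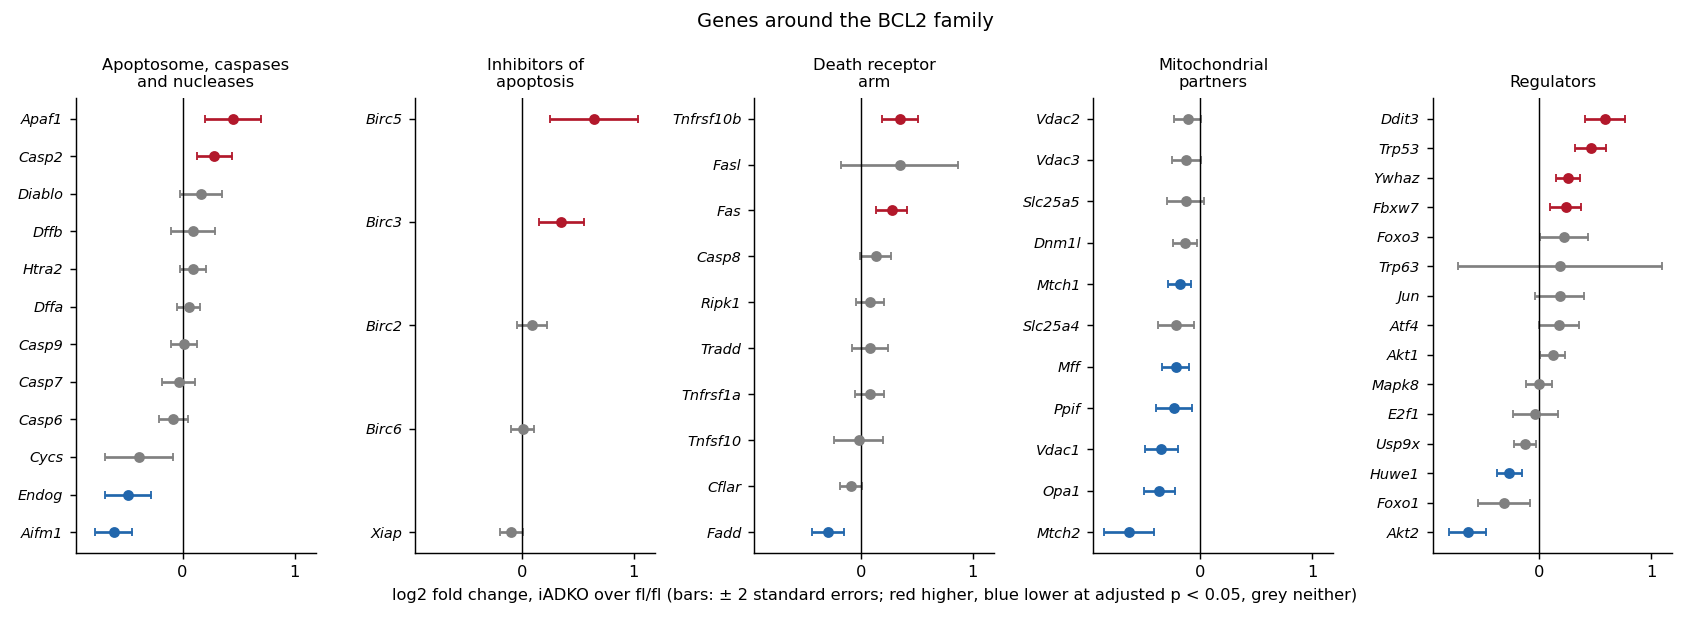
Log2 fold change of iADKO over fl/fl (x axis, bars of 2 standard errors) of genes from the 5 other lists, red where higher and blue where lower at an adjusted p under 0.05. All 11 mitochondrial partners lie left of 0, while the other 4 lists lie on both sides.

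Since p53 binds a pair of short half-sites, the promoters of the members were searched on both strands for a single p53 consensus half-site, in the windows from 250 bases before to 50 after each start in the RefSeq table (GRCm38.p6). Windows of 9 of the members were searched, 15 in all. *Pmaip1* was not searched, because windows on its chromosome were left out, for the members and for all other genes. A half-site was found in 1 of the 15, that of *Bax*, and in 8.36% of the 32851 windows searched. The share among the members was thus not above that over all windows searched. The *Bax* match is shown as the only one found, with 60 bases found once on chromosome 7 of GRCm39 and the half-site in capitals.

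*Bax*, chr7:45116489-45116548, minus strand: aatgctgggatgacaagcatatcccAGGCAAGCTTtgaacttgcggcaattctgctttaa

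The half-site runs from -201 to -192 counted from the start. Such a match is a description of letters, and binding was not measured.

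Some of the B, T, NK and neutrophil markers were also called higher, where 14.1% of all genes tested were called higher. Of 5 B cell markers 2 were higher (sums of 20.8 to 57.5 CPM in fl/fl and 38.0 to 84.2 CPM in iADKO), of 6 T cell markers 3 (19.6 to 32.1 and 34.9 to 40.3 CPM), of 4 NK cell markers 2 (4.94 to 10.5 and 10.1 to 12.5 CPM) and of 4 neutrophil markers 1 (18.2 to 174 and 70.1 to 261 CPM), with 0 lower in each list. The ranges of these sums overlapped between the genotypes in every list but that of the T cells. No marker of these lists was at 0 in any library. Of 4 endothelial markers 2 were lower, at sums of 653 to 896 and 669 to 757 CPM, where 16.3% of all genes tested were lower. The progenitor, mesothelial and muscle lists had 0 calls. The part of these cells in the members' values was not tested, except through the macrophage and adipocyte scores above.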

How the data were processed

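The authors deposited raw counts per gene for 33618 Ensembl gene identifiers. The authors also deposited log2-scale regularized log (rlog) values made from them, which were not used. Per the submitters' processing notes and the study's methods, reads were checked with FastQC 0.12.1, aligned with STAR 2.7.11a to mm39 and tested with DESeq2. The counting tool, its annotation and its strand setting are not given in the sources used here.

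Genotypes and replicate numbers came from the labels. In R 4.3.3, genes were filtered with filterByExpr of edgeR 4.0.16, normalized by TMM and tested over all 16753 genes with the robust quasi-likelihood test, 7 fl/fl against 6 iADKO, with Benjamini-Hochberg adjustment and a threshold of 0.05. Standard errors came from the fold change and the F statistic. Intervals are 2 standard errors either way. Log2 CPM used a prior count of 2. Between any pair of mice of a genotype, chi-square per degree of freedom was 8.16 to 88.8, above counting error, so no library was a copy of another. Errors are the spread between mice, which includes counting error. Gene models and coordinates are GENCODE vM39 (GRCm39), in which 33184 identifiers were found. Scripts were tested on simulated counts.

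The members and lists were chosen with earlier results of these data known. Genes named are the 10 members, *Lmna*, every gene of a list past the threshold (up to 8) or with a role beside a member, and the 3 genes of highest residual Pearson r with a member. Results of a few single genes that this rule would name are not reported here, although counts over lists include them. Alternatives were DESeq2's size factors, the Wald test of DESeq2 1.42.0, other filters on low counts (none, or at least 10 counts in every library), a block for the replicate number or for the animal series, normalization without mitochondrially encoded genes, no robust estimation, marker scores as covariates and each mouse left out. The fits within a series, with iADKO replicate 1 joined to a series and without fl/fl replicate 5 and iADKO replicate 6 were added after the data were seen.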

Additional observations from a re-analysis of the deposited data

Results flagged for a closer look

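Among the values of the members and *Lmna* in both groups, 22 sets of mice were checked for a mouse far from the others in its group, and 3 stood apart by Dixon's criterion, which chance gives for about 1 group in 20. *Mcl1* in fl/fl replicate 5 was at 289 CPM, with a Dixon ratio of 0.62 against a critical value of 0.568. *Bcl2l11* in the same mouse was at 42.2 CPM, with a ratio of 0.62 against the same value. This mouse also had the highest macrophage marker sum (5287 CPM) and the lowest adipocyte marker sum (16171 CPM) of the fl/fl mice, and their part in the 2 values was not tested. *Bid* in iADKO replicate 1 was at 13.5 CPM, the lowest of its group, with a ratio of 0.70 against 0.625.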

How the results depend on the processing

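The same 5 members passed with DESeq2's size factors in edgeR, the DESeq2 Wald test, at least 10 counts in every library, no mitochondrially encoded genes in the normalization and no robust estimation. With no filter on low counts 3 passed, and without fl/fl replicate 5 and iADKO replicate 6 together 4. With the series block 0 members passed, with 0 of 69 genes of the 6 lists and 54 of all genes, against 30 and 5104. At an unadjusted p under 0.05, 27 list genes and 4000 of all genes passed with that block. With iADKO replicate 1 joined to a series the adjusted counts of members, list genes and all genes were 2, 12 and 1986. They were 0, 5 and 533 with the macrophage score, and 0, 0 (10 unadjusted) and 6 (2252 unadjusted) with the adipocyte score. Within the series of 2 fl/fl and 2 iADKO mice edgeR gave 0, 0 and 0, with 1, 2 and 657 at an unadjusted p under 0.05, in a fit with few degrees of freedom. Leaving out each mouse gave 3 to 6 members, 27 to 36 list genes and 3998 to 6604 genes in all, with 3 members without fl/fl replicate 1, iADKO replicate 2 or iADKO replicate 4, and 6 without fl/fl replicate 7.

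Log2 fold changes that changed sign were, with the adipocyte score, *Mcl1* (-0.061), *Bcl2l11* (-0.37), *Bbc3* (0.30), *Bid* (0.13) and *Bad* (0.12); with the macrophage score, *Bbc3* (0.091), *Bid* (0.020) and *Bad* (0.026); within the series of 2 and 2, *Bbc3* (0.24), *Bid* (0.030) and *Bad* (0.032); and with the series block *Bbc3* (0.32, or 0.18 with iADKO replicate 1 joined). With each mouse left out *Bbc3* ranged from -0.16 to 0.064 and *Bid* from -0.097 to 0.012. The cause of these changes was not tested.

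With the replicate number as a block and fl/fl replicate 7 left out, the same 5 members, and 4833 genes in all, passed. Residuals of same-numbered mice correlated between -0.026 and 0.22, over 0.1 in 3 of 6 pairs. Their mean was 0.11, against -0.020 for the other pairs, and 5 of 12 mice correlated best with their own number. Whether the number marks a pairing was not tested, and the block changed no member's call. *Pmaip1* had 31 to 143 counts per library, and its counting error is part of the spread between mice.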
